A study of Mus musculus with 32 samples.

Results

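The ligands of the tumour necrosis factor (TNF) superfamily were followed in dendritic cells through an LPS time course. Members were the genes whose symbol in the deposited tables was Tnf, Lta, Ltb, Tnfsf4, Tnfsf9, Tnfsf10, Tnfsf13b, Tnfsf14 or Tnfsf15, which gave 9 of the 22216 genes listed, and their level was the deposited RPKM, a read density scaled to gene length and to the depth of the library. All 9 passed the filter on low values, which asked for 4 libraries or more at an RPKM of 1 or above.

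The study compared wild-type C57BL/6 cells (WT) with cells of the genotype Lmp7-/-Mecl1-/- on the same strain (dKO), which lack 2 catalytic subunits of the immunoproteasome. Bone marrow was grown in GM-CSF, and at day 9 of culture the cells either received no LPS (0 h) or were treated with LPS at 1 µg/mL for 1, 2 or 6 h. RNA sequencing covered 8 groups, each genotype at each time, with 4 libraries per group and 32 in all. The labels do not say whether the replicates came from separate mice, so the p-values speak only of spread among the libraries, and that spread may be technical.

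TNF superfamily ligands are mostly trimeric membrane proteins of immune cells, and several are shed as soluble cytokines. They bind receptors of the TNF receptor superfamily, which recruit TRAF adaptors to activate NF-kappaB and MAP kinases, or death domain adaptors to start apoptosis. In dendritic cells they carry inflammation (TNF), costimulation of T cells (OX40 ligand, CD137 ligand, LIGHT, TL1A), killing (TRAIL) and B cell survival (BAFF).

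In the course described below, Tnf reached the highest level and Tnfsf15 had the largest fold. Tnfsf10 was highest at 6 h, the last time sampled, and Ltb was lower in dKO cells. As their genes mark these extremes, the promoters of these 4 members are shown first. Each is the stretch of 250 bases before the transcription start in RefSeq on GRCm38.p6, 5′ to 3′ on the strand of the gene, at chr17:35202008-35202257 (minus strand) for Tnf, chr4:63745060-63745309 (minus) for Tnfsf15, chr3:27316827-27317076 (plus) for Tnfsf10 and chr17:35194257-35194506 (plus) for Ltb. Capitals mark matches to 4 motifs: TATAAA on the strand of the gene, and on either strand AANNGAAA (a core of interferon regulatory factor sites), TGANTCA (an AP-1 site) and the kappaB consensus.
Tnf: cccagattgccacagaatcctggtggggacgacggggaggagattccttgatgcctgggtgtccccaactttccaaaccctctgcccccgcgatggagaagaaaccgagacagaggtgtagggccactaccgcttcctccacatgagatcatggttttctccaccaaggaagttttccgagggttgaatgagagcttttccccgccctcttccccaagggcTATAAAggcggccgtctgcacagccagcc
Tnfsf15: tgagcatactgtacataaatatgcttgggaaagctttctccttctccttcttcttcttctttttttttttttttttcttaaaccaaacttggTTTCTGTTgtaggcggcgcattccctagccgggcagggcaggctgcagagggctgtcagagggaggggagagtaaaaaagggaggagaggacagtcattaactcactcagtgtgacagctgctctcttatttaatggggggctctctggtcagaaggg
Tnfsf10: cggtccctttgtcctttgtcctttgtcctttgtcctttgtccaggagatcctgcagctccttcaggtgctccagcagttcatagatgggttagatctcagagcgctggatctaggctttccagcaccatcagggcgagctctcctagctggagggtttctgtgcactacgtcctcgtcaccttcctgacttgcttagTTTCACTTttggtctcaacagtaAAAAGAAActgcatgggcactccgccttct
Ltb: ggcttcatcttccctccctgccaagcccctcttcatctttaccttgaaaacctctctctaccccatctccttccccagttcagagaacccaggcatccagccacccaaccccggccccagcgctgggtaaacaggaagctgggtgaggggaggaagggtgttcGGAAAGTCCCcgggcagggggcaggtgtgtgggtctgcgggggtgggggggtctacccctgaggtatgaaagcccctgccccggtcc
Tnf has TATAAA from position -29 to -24 before the start. Tnfsf10 has AANNGAAA at -53 to -46 and again at -30 to -23, Tnfsf15 has it once at -158 to -151, and Ltb has a kappaB consensus match at -87 to -78. Among 32851 promoters of the same length, 7.59% hold TATAAA, 21.3% AANNGAAA, 6.75% TGANTCA and 7.25% the kappaB consensus. Matches were also found in promoters not shown, including those of members that fell after LPS. Tnfsf13b has AANNGAAA at -160 to -153, -20 to -13 and -14 to -7, and TGANTCA at -127 to -121. Tnfsf14 has TGANTCA at -160 to -154, and Lta has TATAAA at -167 to -162. A match describes the letters only, and RefSeq promoters were matched for 7 of the 9 members.

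Tnf mRNA also carries the AU-rich element through which Zfp36 (tristetraprolin) shortens its life. In GENCODE M21 its 3′ UTR of 764 bases holds TTATTTATT 5 times, counting overlapping copies, and 4 of them lie in the stretch below, in capitals.
Tnf element: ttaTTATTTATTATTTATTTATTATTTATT
Lta and Tnfsf13b hold 1 copy each and the other 6 members none. Of 9779 tested genes with an annotated 3′ UTR, 7.22% hold at least 1 copy and 1.46% hold 2 or more.

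Depth, read from the values as the base coverage summed over genes, was 1.27 to 1.87 Gb per library (mean 1.55 ± 0.142 Gb, SD, n = 32). Psmb8, which encodes LMP7, lay at 150.3 to 312 RPKM in the 16 WT libraries and 2.67 to 7.42 in the 16 dKO libraries, and Psmb10, which encodes MECL1, at 41.6 to 131 and 2.37 to 17.1. Of the dKO libraries, 5 correlated best with the WT mean of another time than their label gives, over genes outside every list used here: those labelled 0 h replicate 2 (nearest to 1 h), 1 h replicate 2 (2 h), 2 h replicate 2 (0 h), 2 h replicate 4 (6 h) and 6 h replicate 4 (2 h). Their correlation with the labelled time was 0.824 to 0.945, while the remaining 11 dKO libraries gave 0.972 to 0.98 and 0.994 to 0.996 in WT. They were kept as labelled, and the members' calls between genotypes are also given without these 5 libraries, which leaves 3 dKO libraries at 0, 1 and 6 h and 2 at 2 h. The 10 dendritic markers (Itgax, Cd74, MHC class II genes and others) summed to 13586 to 19506 RPKM in WT and 10382 to 18532 in dKO over the 4 times. Markers of lymphocytes were low but not all at 0. The highest level of any of 9 T cell markers in any library was 4.00 RPKM (Lck), with Cd247 up to 3.88 and Cd8a up to 3.30, while Cd3e, Cd3d and Cd3g stayed at or below 0.245. The 7 B cell markers reached at most 1.36 RPKM (Cd79b). Of 7 markers of NK and innate lymphoid cells, Klrk1 reached 10.2 RPKM and 3 were listed at 0 in all 32 libraries, Gzma and Prf1 among them.

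In WT cells 6 of the 9 ligands were higher 6 h after LPS than before it, by 2.54 (Lta) to 7.25 (Tnfsf15) on the log2(RPKM + 0.5) scale, and 3 were lower. With all libraries, Tnf, Tnfsf9, Tnfsf15, Tnfsf4 and Lta were called higher at 1 h, and Tnfsf10 joined them at 2 h. Tnfsf14 and Tnfsf13b were called lower from 2 h and Ltb at 6 h. By limma with Benjamini-Hochberg adjustment at 0.05, 5 members were called higher and 0 lower at 1 h, 6 and 2 at 2 h, and 6 and 3 at 6 h (5 and 0, 7 and 0, and 6 and 2 when scaled by median of ratios). Of all 11154 genes tested, 52.3% were called at 1 h (6.84% higher, 45.5% lower), 79.7% at 2 h (11.2% and 68.5%) and 75.8% at 6 h (14.9% and 60.9%). Without the 5 dKO libraries the members' counts were 5 and 2, 6 and 2, and 6 and 3. Of all genes 79.7%, 89.2% and 88.1% were then called, 68.7%, 74.9% and 69.6% lower. The 2 members called lower at 1 h in that fit were Tnfsf10 and Tnfsf14. The median of the 9 members was 2.56, 3.21 and 3.03 on the log2 scale at the 3 times, while the median of all genes was -0.42, -0.73 and -0.65. RPKM is relative to the library, and when scaled by median of ratios the medians of all genes lay within 0.03 of 0 and the genes called split into 15.2% higher and 13.1% lower at 1 h, 30.7% and 31.1% at 2 h, and 32.6% and 33.8% at 6 h.

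The sum of the 9 ligands and its makeup changed with time. Summed over the 9 ligands, WT cells held 66.9 to 78.5 RPKM at 0 h, 5706 to 6180 at 1 h, 4653 to 5408 at 2 h and 1192 to 1381 at 6 h. Tnf made up 30.7% of the mean sum at 0 h, 83.3% at 1 h, 69.1% at 2 h and 44.8% at 6 h. In bulk RNA, fewer cells that make a transcript and less of it per cell cannot be told apart.

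**Figure D1:**
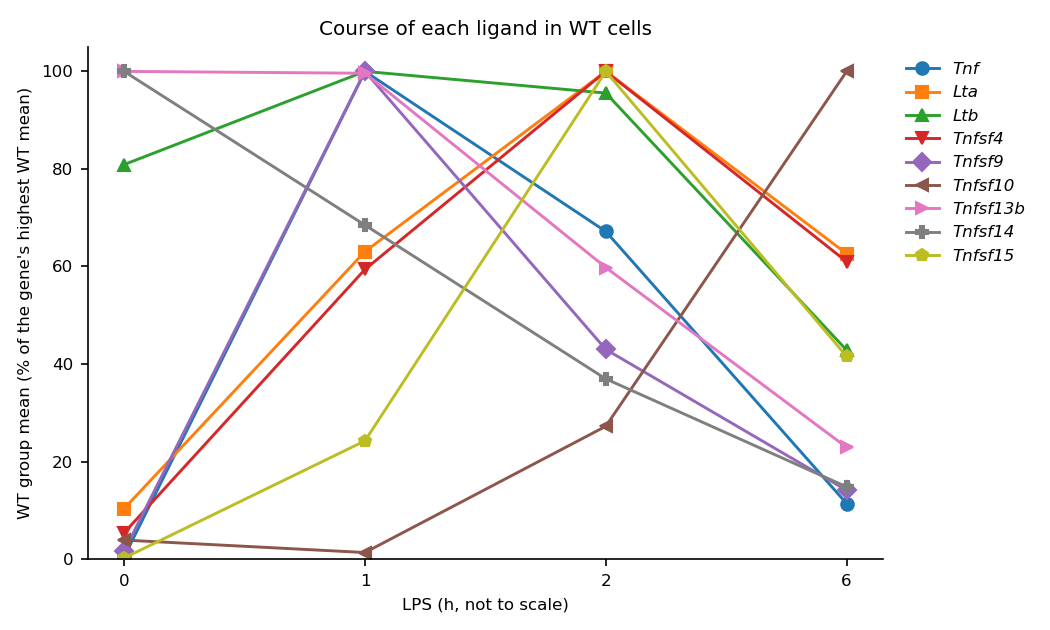
Mean RPKM of the 4 WT libraries at each LPS time, as a percentage of that gene's highest WT mean; 1 line per ligand. Tnf and Tnfsf9 are highest at 1 h, Lta, Tnfsf4 and Tnfsf15 at 2 h and Tnfsf10 at 6 h, while Tnfsf13b and Tnfsf14 are highest at 0 h and Ltb differs little between 0, 1 and 2 h.

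Tnf, the founding cytokine of the family, lies on chromosome 17 at 35336336 to 35338941 (mm9). Its RPKM in the 4 WT libraries was 23.5, 25.8, 20.5 and 20.0 at 0 h, 5171, 5184, 5048 and 4726 at 1 h, 3355, 3845, 3146 and 3177 at 2 h, and 572, 677, 553 and 489 at 6 h. No 2 of these groups overlapped. The 1 h mean was 224 times the 0 h mean and made Tnf the 5th highest of all genes, from rank 3059 at 0 h. The rise was 7.78 ± 1.31 (log2, SE) at 1 h (adjusted p = 0.000134, limma), 7.21 at 2 h and 4.64 at 6 h. By 6 h the mean had dropped to 11.4% of that at 1 h. The step from 2 to 6 h was -2.57 (adjusted p = 0.108, limma, with all libraries; 3.57e-17 without the 5 dKO libraries, where the SE was 0.10 in place of 1.31).

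In the dKO libraries Tnf stood at 18.5, 18.3 and 14.8 RPKM at 0 h, with 6060 in the library labelled replicate 2. At 1 h it stood at 6018, 5942 and 5959, with 4031 in replicate 2. The 2 h libraries gave 3917 and 3386 in replicates 1 and 3, with 20.5 in replicate 2 and 972 in replicate 4, and the 6 h libraries gave 704, 824 and 691, with 2830 in replicate 4. With all libraries no genotype difference of Tnf was called (1.73 ± 1.31 at 0 h, adjusted p = 0.486, limma). Without the 5, Tnf was 0.37 lower on the log2 scale in dKO at 0 h (-0.37 ± 0.10, adjusted p = 0.00781, limma) and higher at 6 h (0.37 ± 0.10, adjusted p = 0.00449), with no overlap between WT and dKO libraries at either time. The 0 h call was lost when dKO 0 h replicate 4 was also left out (-0.27, adjusted p = 0.0836, limma). The 1 h difference was 0.25 ± 0.10 (adjusted p = 0.0588, limma) although the 3 dKO libraries lay above every WT library.

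**Figure D2:**
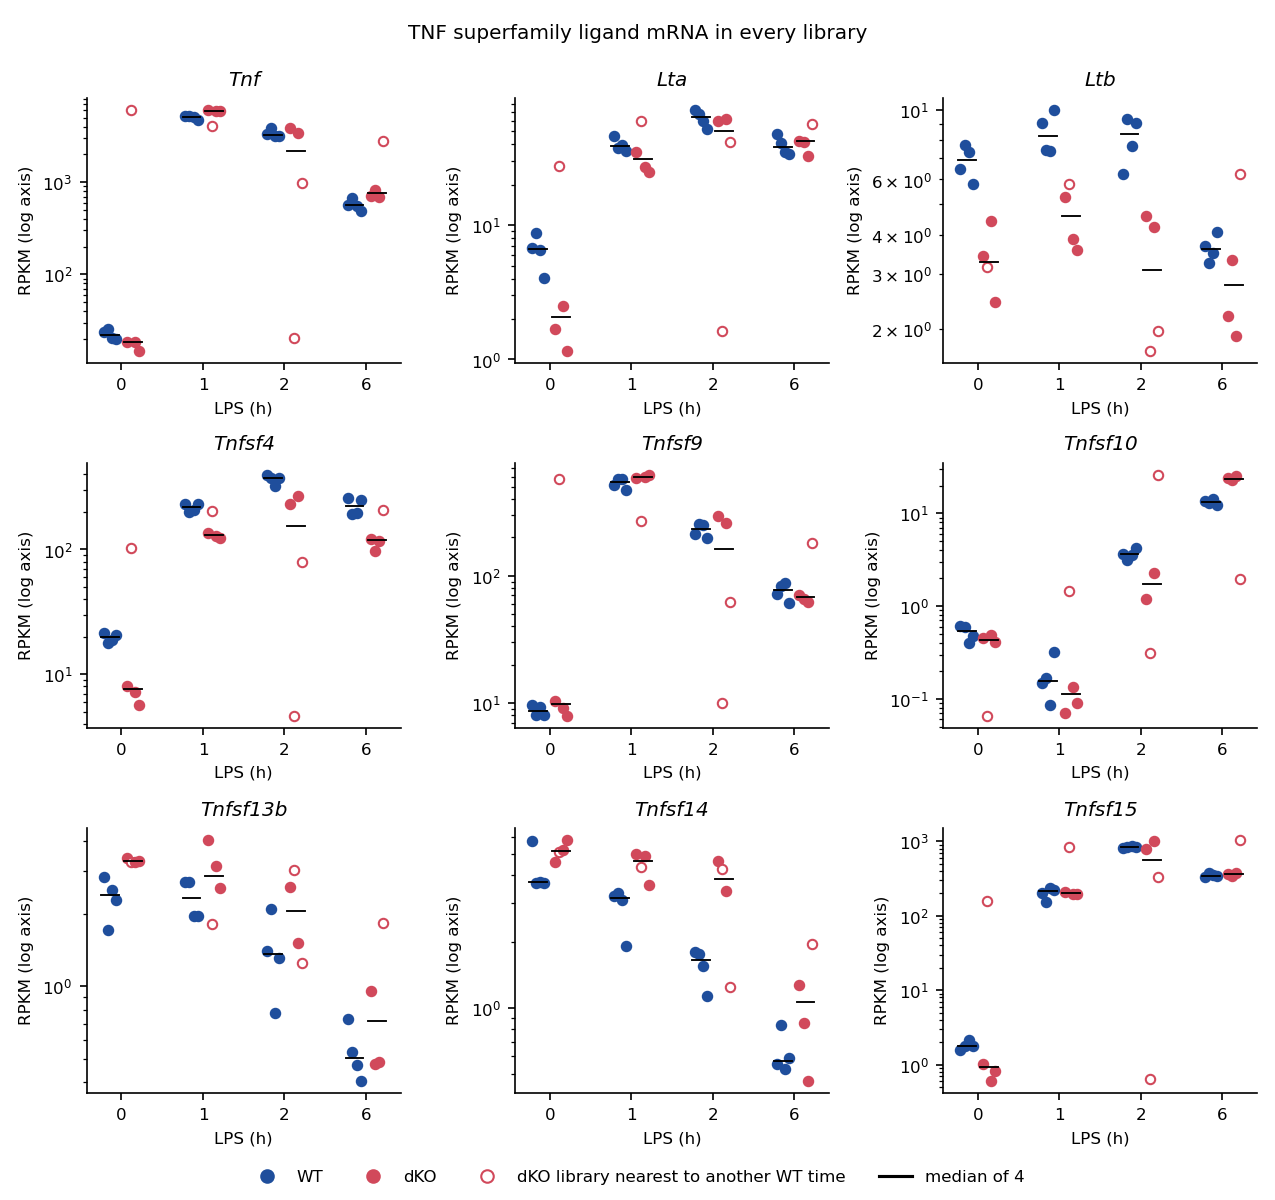
RPKM (log axis) of each ligand in all 32 libraries by LPS time: WT in blue, dKO in red, open circles for the 5 dKO libraries nearest to another WT time, and black lines for the median of 4. Open circles lie far from the filled dKO points of their group for Tnf, Tnfsf9 and Tnfsf15, and filled dKO points lie below WT for Tnfsf4 at every time.

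Lta encodes lymphotoxin alpha, a secreted relative of TNF that uses the TNF receptors, and its gene ends 1.168 kb from Tnf (chromosome 17, 35340110 to 35342296). WT libraries held 6.73, 8.72, 6.57 and 4.03 RPKM at 0 h, 45.9, 37.6, 39.6 and 35.6 at 1 h, 72.0, 67.5, 60.1 and 52.3 at 2 h, and 47.9, 40.7, 35.2 and 33.8 at 6 h. The 2 h libraries lay above all others, and those at 1 h and 6 h overlapped. Lta rose by 2.56 ± 0.73 at 1 h (log2, SE, adjusted p = 0.00667, limma), 3.21 at 2 h and 2.54 at 6 h. Its highest WT mean, 63 RPKM, came at 2 h, while that of its neighbour Tnf came at 1 h.

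Among libraries outside the 5, Lta differed most between genotypes before LPS. The 3 dKO libraries at 0 h outside the 5 held 1.68, 2.501 and 1.16 RPKM, all below the lowest WT library at 4.03, and the library labelled replicate 2 held 27.8. Without the 5 the difference was -1.62 ± 0.19 (log2, adjusted p = 6.49e-07, limma), and with them -0.70 ± 0.73 (adjusted p = 0.608). At 2 h (59.7 and 61.8 RPKM, with 1.63 and 41.7 in the libraries labelled replicates 2 and 4) and 6 h (42.7, 41.7 and 32.7, with 56.4 in replicate 4) the dKO libraries outside the 5 overlapped WT, although 32.7 lay just below the lowest WT library, with differences of -0.04 ± 0.22 and -0.01 ± 0.19. At 1 h they held 35.3, 27.02 and 24.8 RPKM, below all WT libraries, with 59.9 in replicate 2, and the difference without the 5 was -0.45 ± 0.19 (adjusted p = 0.0659, limma). It was called (-0.60, adjusted p = 0.0325, limma) when dKO 1 h replicate 1 was left out as well.

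Ltb encodes lymphotoxin beta, the membrane partner that anchors lymphotoxin alpha, and lies on the other side of Tnf across 3.085 kb (35331452 to 35333250). WT libraries held 6.46, 7.75, 7.36 and 5.82 RPKM at 0 h, 9.06, 7.44, 7.38 and 9.99 at 1 h, 6.24, 9.35, 7.68 and 9.10 at 2 h, and 3.69, 3.25, 3.49 and 4.08 at 6 h. The first 3 times overlapped and the 6 h libraries lay below them. Only the 6 h change was called (-0.83 ± 0.26, adjusted p = 0.00645, limma), and scaling by median of ratios made it -0.20 (adjusted p = 0.592), under which Ltb was called higher at 2 h (0.95, adjusted p = 0.0114).

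Less Ltb was found in dKO cells before LPS, after 1 h and after 2 h, with and without the 5 libraries. The dKO values were 3.41, 3.14, 4.41 and 2.44 RPKM at 0 h, 5.27, 5.82, 3.87 and 3.58 at 1 h, and 4.58, 1.70, 4.22 and 1.97 at 2 h. All 4 dKO libraries lay below all 4 WT libraries at each of these times. The difference was -0.95 ± 0.26 at 0 h (log2, adjusted p = 0.0247, limma), -0.82 ± 0.26 at 1 h (0.0443) and -1.33 ± 0.26 at 2 h (0.000844). Without the 5 it was -0.93, -0.93 and -0.79 (adjusted p = 0.00019, 0.000133 and 0.00268, limma). At 6 h (2.19, 3.33, 1.902 and 6.27 in dKO, the last labelled replicate 4) it was called without the 5 (-0.50 ± 0.17, adjusted p = 0.0201, limma), not with them (-0.19 ± 0.26, adjusted p = 0.68). The 0 h call was lost when any 1 of 5 libraries was left out of the full set (adjusted p 0.0528 to 0.0863, limma) and the 1 h call with any 1 of 7 (0.0523 to 0.137), with the difference still at -0.71 or below. Scaled by median of ratios, with all libraries, the 0 h and 1 h differences were -0.73 (adjusted p = 0.239, limma) and -0.63 (0.248). The 6 h call was lost without WT 6 h replicate 4, dKO 6 h replicate 1 or dKO 6 h replicate 3 as well (adjusted p = 0.0571, 0.0788 and 0.13, limma), and it was also lost without the 5 when scaled by median of ratios (-0.39, 0.0699). At this time 1 of the dKO libraries outside the 5, at 3.33 RPKM, lay within the WT range.

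Tnfsf4 encodes OX40 ligand, which costimulates T cells through OX40 (chromosome 1, 163325569 to 163348337). Its WT RPKM was 21.5, 17.6, 18.9 and 20.8 at 0 h, 232, 201, 206 and 230 at 1 h, 395, 373, 324 and 372 at 2 h, and 258, 191, 195 and 248 at 6 h. The 2 h libraries were highest, and 1 h and 6 h overlapped. The rise was 3.43 ± 0.78 at 1 h (log2, adjusted p = 0.00141, limma), 4.18 at 2 h, when Tnfsf4 ranked 156th of all genes, and 3.46 at 6 h.

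Among libraries outside the 5, Tnfsf4 was lower in dKO at all 4 times. These held 7.98, 7.26 and 5.72 RPKM at 0 h, 134, 128 and 123 at 1 h, 231 and 267 at 2 h, and 120, 97.4 and 116 at 6 h. Each of these 11 libraries lay below all 4 WT libraries of its time. The 5 held 104 (labelled 0 h), 205 (1 h), 4.63 and 79.9 (2 h) and 208 (6 h). Without them the differences were -1.44 ± 0.11, -0.76 ± 0.11, -0.55 ± 0.13 and -0.99 ± 0.11 at 0, 1, 2 and 6 h (log2, SE, adjusted p = 3.51e-10, 7.28e-06, 0.00136 and 1.1e-07, limma). With all libraries only the 2 h difference was called (-2.36 ± 0.78, adjusted p = 0.0442, limma), and it was -1.10 (adjusted p = 0.208) when the library labelled dKO 2 h replicate 2 alone was left out. Any 1 of 6 libraries ended this call (adjusted p 0.0584 to 0.208, limma). Those at 0, 1 and 6 h were -0.49, -0.59 and -0.77 (adjusted p = 0.74, 0.703 and 0.562, limma).

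Tnfsf9 encodes CD137 ligand, another costimulator (chromosome 17, 57244808 to 57247180). WT libraries held 9.57, 8.01, 9.30 and 8.01 RPKM at 0 h, 514, 572, 580 and 475 at 1 h, 212, 257, 253 and 198 at 2 h, and 71.2, 82.4, 86.8 and 61.5 at 6 h. The 4 times did not overlap, and the order was that of Tnf. The rise was 5.86 ± 0.90 at 1 h (log2, adjusted p = 6.64e-05, limma), a 61.3-fold ratio of means, then 4.64 at 2 h and 3.03 at 6 h. Its dKO libraries outside the 5 held 10.4, 9.12 and 7.88 RPKM at 0 h, 586, 600 and 618 at 1 h, 293 and 262 at 2 h, and 70.2, 66.2 and 62.1 at 6 h. These lay above all WT libraries at 1 h and 2 h and overlapped them at 0 h and 6 h. No genotype difference was called at any time with or without the 5, and without them the differences ran from -0.18 ± 0.11 (6 h) to 0.28 ± 0.12 (2 h). Leaving out WT 6 h replicate 4 too made the 6 h difference a call (-0.27, adjusted p = 0.0447, limma). The 5 held 573, 271, 9.89, 61.8 and 180 in the order given above. With median-of-ratios scaling and without the 5, the 2 h difference was called (0.40 ± 0.13, adjusted p = 0.0207, limma).

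Tnfsf15 encodes TL1A, a ligand of death receptor DR3 (chromosome 4, 63385637 to 63406147), and had the largest fold of the family. WT libraries held 1.58, 1.76, 2.14 and 1.76 RPKM at 0 h, 204, 153, 235 and 225 at 1 h, 803, 849, 877 and 838 at 2 h, and 333, 372, 351 and 342 at 6 h. All 4 times were separate, with a peak at 2 h at which Tnfsf15 ranked 54th of all genes. The rise was 6.45 ± 1.38 at 1 h (log2, adjusted p = 0.000926, limma), 8.51 at 2 h and 7.25 at 6 h, and the 2 h mean was 465 times the 0 h mean. In dKO the 0 h libraries outside the 5 held 1.02, 0.602 and 0.83 RPKM, below all WT libraries, and the library labelled replicate 2 held 156. The 0 h difference was -0.82 ± 0.11 without the 5 (adjusted p = 5.37e-06, limma) and 0.91 ± 1.38 with them (0.727). After LPS the dKO libraries outside the 5 held 206, 198 and 196 RPKM at 1 h, 796 and 1001 at 2 h, and 364, 345 and 371 at 6 h, which overlapped WT at each time, with differences of -0.01 ± 0.11, 0.09 ± 0.13 and 0.04 ± 0.11. The other 4 of the 5 held 845 (1 h), 0.635 and 337 (2 h) and 1043 (6 h).

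Tnfsf14 encodes LIGHT, which binds HVEM and the lymphotoxin beta receptor (chromosome 17, 57328915 to 57333609), and it fell after LPS. WT libraries held 5.75, 3.69, 3.73 and 3.72 RPKM at 0 h, 3.22, 3.33, 3.09 and 1.91 at 1 h, 1.796, 1.76, 1.55 and 1.13 at 2 h, and 0.55, 0.835, 0.52 and 0.59 at 6 h. The times were separate, with 14.8% of the 0 h mean left at 6 h. The 1 h change was called only without the 5 (-0.48, adjusted p = 0.0178, limma). That call was lost when WT 0 h replicate 1 (0.0948) or WT 1 h replicate 4 (0.101) was left out as well. With all libraries the changes were -1.19 ± 0.26 at 2 h (log2, adjusted p = 0.000258, limma) and -2.05 ± 0.26 at 6 h (3.03e-07). Scaled by median of ratios they were -0.52 (adjusted p = 0.103, limma) and -1.49 (4.26e-05).

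Tnfsf14 (LIGHT) mRNA was higher in dKO cells at 2 h in either set of libraries. The dKO values were 4.64, 4.27, 3.40 and 1.24 RPKM at 2 h, the second and the fourth from the 5. Replicates 1 to 3 lay above all WT libraries. The difference was 0.82 ± 0.26 (log2, adjusted p = 0.0398, limma), and 1.13 ± 0.22 without the 5 (0.000294). With all libraries, leaving out any 1 of 7 libraries ended the call (0.64 to 0.87, adjusted p 0.057 to 0.128, limma), and median-of-ratios scaling gave 0.76 (0.0546). At 1 h the dKO libraries (5.04, 4.37, 4.90 and 3.62 RPKM) lay above all WT libraries, with a difference of 0.57 ± 0.26 (adjusted p = 0.188, limma), and 0.58 ± 0.19 without the 5 (0.0201). This last call was lost without WT 1 h replicate 4 (0.42, adjusted p = 0.0929, limma), dKO 1 h replicate 1 (0.50, 0.0837) or dKO 1 h replicate 3 (0.52, 0.0777). The differences at 0 h (4.59, 5.10, 5.21 and 5.80 in dKO) and 6 h (1.27, 0.85, 0.46 and 1.96) were not called in either set.

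Tnfsf10 encodes TRAIL, the ligand of the death receptor Tnfrsf10b (chromosome 3, 27215999 to 27238587), and was the late member. WT libraries held 0.61, 0.60, 0.40 and 0.47 RPKM at 0 h, 0.15, 0.17, 0.09 and 0.32 at 1 h, 3.61, 3.14, 3.59 and 4.197 at 2 h, and 13.6, 13.1, 14.3 and 12.4 at 6 h. The 4 times did not overlap, with the lowest level at 1 h and the highest at 6 h. The rise was 2.02 ± 0.68 at 2 h (log2, adjusted p = 0.00913, limma) and 3.77 at 6 h. The added 0.5 understates the fold of so low a gene, and the ratio of mean RPKM to 0 h was 6.99 at 2 h and 25.7 at 6 h. The step from 1 to 2 h was called (2.61 ± 0.68, adjusted p = 0.00745, limma), one of 2 such members (32.8% of all genes, 7.24% higher and 25.6% lower), and the other was Tnfsf14 (-0.71, 0.0413), whose call ended when any 1 of 7 libraries was left out (0.0556 to 0.111). From 2 to 6 h, 4 members were called (45.6% of all genes, 26.1% higher and 19.5% lower): Tnfsf10 higher (1.75, adjusted p = 0.0383, limma) and Ltb (-1.05), Tnfsf13b (-0.84) and Tnfsf14 (-0.87) lower. The call of Tnfsf10 ended without any 1 of 8 libraries (adjusted p 0.0558 to 0.076, limma), and that of Tnfsf13b without WT 2 h replicate 2 (-0.67, 0.0508). Without the 5, 8 members were called from 1 to 2 h (71.7% of all genes) and 9 from 2 to 6 h (74.2%).

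Tnfsf10 (TRAIL) mRNA differed by genotype in opposite directions at 2 h and 6 h among the libraries outside the 5. At 2 h these held 1.19 and 2.26 RPKM, below all WT libraries, and at 6 h they held 24.1, 23.0 and 25.4, above all of them. The differences were -0.93 ± 0.15 (log2, adjusted p = 3.35e-05, limma) and 0.83 ± 0.13 (1.45e-05). The 5 held 0.065 (0 h), 1.46 (1 h), 0.308 and 26.0 (2 h) and 1.95 (6 h), and with them no difference was called (-0.38 ± 0.68 at 2 h, adjusted p = 0.74, limma, and 0.00 ± 0.68 at 6 h, adjusted p = 1). At 0 h and 1 h the others held 0.45, 0.48 and 0.41, and 0.07, 0.13 and 0.09 RPKM, and no difference was called.

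Tnfsf13b encodes BAFF, the B cell survival factor (chromosome 8, 10006633 to 10035999), and was low throughout. WT libraries held 2.84, 1.71, 2.505 and 2.28 RPKM at 0 h, 2.70, 2.70, 1.95 and 1.94 at 1 h, 1.399, 2.10, 0.78 and 1.31 at 2 h, and 0.73, 0.53, 0.47 and 0.40 at 6 h. The first 3 times overlapped in sequence and the 6 h libraries lay below all others. The change was -0.61 ± 0.26 at 2 h (log2, adjusted p = 0.0324, limma) and -1.45 at 6 h (1.83e-05). Under median-of-ratios scaling the 2 h value was 0.00 (adjusted p = 0.992, limma) and the 6 h value -0.93 (0.00197), and the 2 h call was also lost when any 1 of 5 libraries was left out (0.0511 to 0.141). The dKO libraries held 3.39, 3.28, 3.26 and 3.31 RPKM at 0 h, all above WT, and 4.03, 1.82, 3.14 and 2.56 at 1 h, 2.58, 3.03, 1.503 and 1.25 at 2 h, and 0.95, 0.48, 0.48 and 1.83 at 6 h. No genotype difference was called at any time, and at 0 h it was 0.44 ± 0.26 (adjusted p = 0.364, limma), and 0.45 ± 0.20 without the 5 (0.115). At 1, 2 and 6 h it was 0.23, 0.43 and 0.39 with all libraries and 0.40, 0.43 and 0.12 without the 5. Without the 5 and WT 2 h replicate 2, the 2 h difference was called (0.60, adjusted p = 0.0421, limma).

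Counted over the family, 0 members were called higher in dKO and 1 lower at 0 h, 0 and 1 at 1 h, 1 and 2 at 2 h, and 0 and 0 at 6 h. Of all genes, 6.84% were called at 0 h (0.932% higher, 5.91% lower), 10.9% at 1 h (1.84%, 9.02%), 12.4% at 2 h (5.15%, 7.24%) and 14.8% at 6 h (4.55%, 10.2%). Under median-of-ratios scaling these splits were 1.79% and 3.07% at 0 h, 4.19% and 6.27% at 1 h, 8.55% and 9.73% at 2 h, and 8.22% and 8.02% at 6 h. The members' median difference was 0.28, 0.11, -1.39 and 0.18 (log2), and that of all genes -0.19, -0.18, 0.09 and -0.15. Without the 5 libraries the counts were 0 higher and 5 lower at 0 h (26.2% of all genes called, 6.75% higher and 19.4% lower), 1 and 2 at 1 h (39.2%, 9.8% higher and 29.4% lower), 1 and 3 at 2 h (33.1%, 9.29% and 23.8%) and 2 and 2 at 6 h (46.9%, 13.9% and 33%). The medians were then -0.37, -0.01, 0.09 and 0.04, against -0.06, -0.11, -0.09 and -0.12 over all genes. The 5 lower at 0 h were Tnf, Lta, Ltb, Tnfsf4 and Tnfsf15. At 6 h none was called with all libraries by limma, and 4 were without the 5, Tnf and Tnfsf10 higher and Ltb and Tnfsf4 lower.

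Marker sums of other cell types moved with the genotype. The sum of 8 neutrophil markers was 561 to 719 RPKM in WT and 202 to 404 in dKO at 0 h, and 411 to 627 against 217 to 395 at 6 h. The sum of 12 mast cell, basophil and eosinophil markers was 478 to 612 against 236 to 475 at 0 h, and 578 to 1011 against 340 to 515 at 6 h. Neither sum overlapped between the genotypes at 0, 1, 2 or 6 h. Both rest mostly on a few high genes: S100a9 (up to 637 RPKM) and S100a8 (447), and the eosinophil genes Prg2 (1108), Ear1 (155) and Epx (131). Cpa3, Mcpt8 and Kit reached at most 3.96, 5.28 and 4.92 RPKM, so the second sum says little of mast cells or basophils. The sum of 9 macrophage markers was higher in dKO without overlap at 1 h (1436 to 1675 in WT, 1871 to 2029 in dKO) and 6 h (549.6 to 749 and 797 to 1897), and overlapped at 0 h (1148 to 1264 and 1214 to 1903) and 2 h (1405 to 1611 and 1046 to 1891). Its highest genes were Cd14 (up to 1171 RPKM), Cd68 (521) and Csf1r (381). Of the 9, 0, 1, 1 and 2 were called higher at 0, 1, 2 and 6 h and 0 lower, where 0.932%, 1.84%, 5.15% and 4.55% of all genes were higher. Without the 5 libraries the numbers higher and lower were 4 and 2, 4 and 1, 3 and 1, and 5 and 0. Of all genes 6.75%, 9.8%, 9.29% and 13.9% were then higher and 19.4%, 29.4%, 23.8% and 33% lower. The 7 NK and innate lymphoid markers summed to 4.11 to 6.57 RPKM in WT and 1.85 to 3.05 in dKO at 0 h, 4.56 to 6.47 and 1.81 to 2.77 at 1 h, 4.35 to 5.85 and 1.51 to 3.85 at 2 h, and 6.72 to 10.5 and 2.14 to 5.84 at 6 h, with no overlap at any time. The only tested gene among them, Klrk1, was called lower in dKO at all 4 times. The 9 T cell markers overlapped at 0, 1 and 2 h and not at 6 h (9.52 to 10.4 RPKM in WT, 3.72 to 8.41 in dKO), when 2 of the 3 tested, Cd247 and Cd8a, were called lower. For the 7 B cell markers the sums were 1.41 to 2.40 in WT and 0.79 to 1.75 in dKO at 0 h and did not overlap at the later times, and the tested one, Blk, was called lower at 0, 1 and 2 h. The numbers of these lymphocyte markers called were the same without the 5, and under median-of-ratios scaling with all libraries Klrk1 was not called at 0 h and no T cell marker at 6 h. The dendritic sums overlapped at 0, 1 and 2 h and not at 6 h (17456 to 19506 in WT, 14976 to 16571 in dKO). Of the 10 dendritic markers 2, 3, 2 and 3 were called lower in dKO at 0, 1, 2 and 6 h and 0 higher, and without the 5 libraries 5, 5, 4 and 7 were lower and 0 higher. With median-of-ratios scaling as well, 4, 5, 3 and 3 were lower and 1 was higher, at 0 h. Of all genes, 5.91%, 9.02%, 7.24% and 10.2% were lower with all libraries. Without the 5 these shares were 19.4%, 29.4%, 23.8% and 33%, and 12.8%, 18.1%, 15.5% and 20.3% with that scaling. The part of these marker differences in the ligand differences was not tested.

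**Figure D3:**
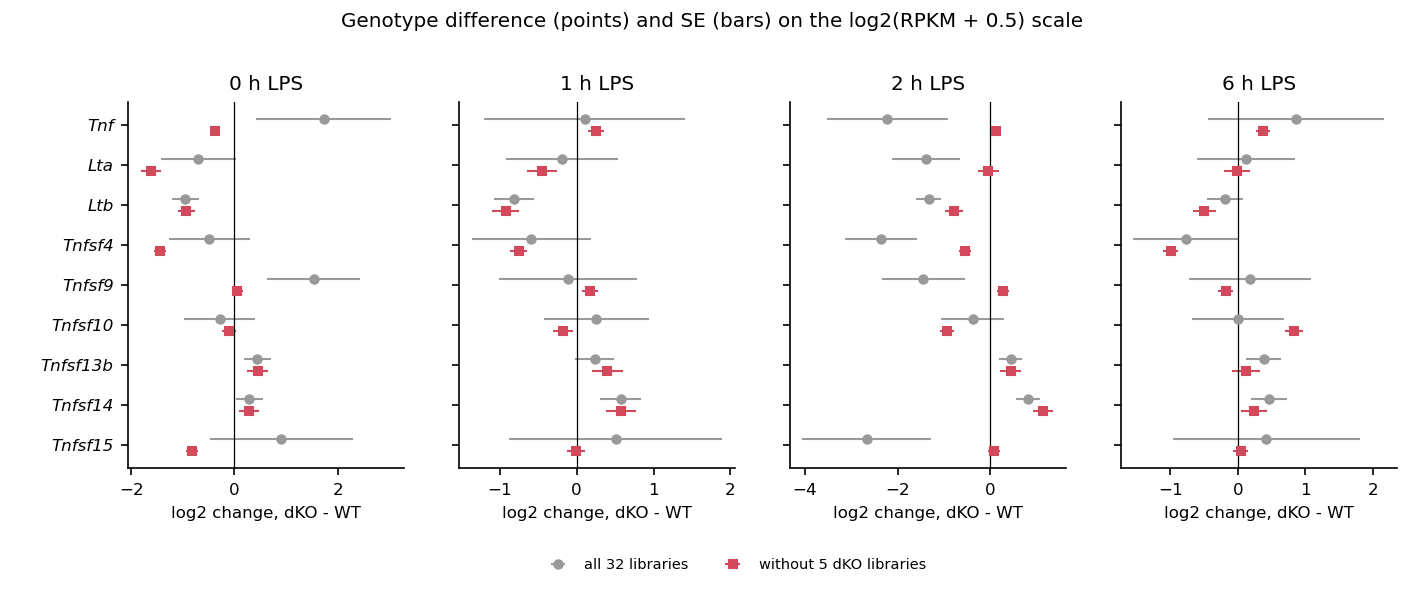
Difference of dKO from WT on the log2(RPKM + 0.5) scale at each LPS time, point with SE bar: grey circles with all 32 libraries, red squares without 5 dKO libraries. Without the 5, Tnfsf4 and Ltb lie below 0 at all 4 times, Lta and Tnfsf15 lie below 0 at 0 h and near 0 at 2 and 6 h, and Tnfsf10 lies below 0 at 2 h and above 0 at 6 h.

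The LPS response of dKO cells was compared with that of WT as a difference of differences. With all libraries, 0 members were called at 1, 2 or 6 h by limma, where 0.0359%, 0.305% and 0.923% of all genes were. Without the 5 libraries, 4 members were called at 1 h (1.8% of all genes), 4 at 2 h (5.62%) and 5 at 6 h (20.3%). Lta rose by 3.73 in dKO and 2.56 in WT at 1 h (log2; difference 1.17 ± 0.27, adjusted p = 0.02, limma), and the difference was 1.58 ± 0.29 at 2 h (0.00131) and 1.61 ± 0.27 at 6 h (0.000143). Tnfsf15 followed with 0.81, 0.90 and 0.86 (adjusted p = 0.005, 0.00172 and 0.000399, limma) and Tnfsf4 with 0.68, 0.88 and 0.45 (0.0179, 0.00169 and 0.0455). Lta, Tnfsf15 and Tnfsf4 were also lower in dKO at 0 h, as were Ltb and Tnf, and the differences at the 3 times share the 0 h libraries. Tnf differed at 1 h (0.62 ± 0.15, adjusted p = 0.02, limma) and 6 h (0.75 ± 0.15, 0.00061). Tnfsf10 differed by -0.83 ± 0.20 at 2 h (0.0119) and 0.94 ± 0.19 at 6 h (0.000736).

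Several of these calls lay near the threshold and ended when 1 library was left out. At 1 h, leaving out dKO 0 h replicate 4 gave 0.96 for Lta (adjusted p = 0.0774, limma), 0.52 for Tnf (0.0766) and 0.56 for Tnfsf4 (0.0686). Leaving out dKO 1 h replicate 1 gave 1.02 for Lta (0.0802), 0.62 for Tnf (0.0501) and 0.65 for Tnfsf4 (0.0542), and without WT 0 h replicate 2 the values were 1.02 for Lta (0.05) and 0.55 for Tnf (0.0514). Without dKO 2 h replicate 1 the 2 h difference of Tnfsf10 was -0.47 (adjusted p = 0.185, limma). For Tnfsf4 at 6 h, 9 single libraries each ended the call (values 0.32 to 0.48, adjusted p 0.0509 to 0.161). The calls of Tnfsf15 held at all 3 times when any 1 library was left out.

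The LPS response was also tested within dKO cells. With all libraries, 5 members were called higher and 0 lower at 1 h (49.9% of all genes called, 5.82% higher and 44.1% lower), 5 and 2 at 2 h (62.9%, 9.17% and 53.8%), and 5 and 2 at 6 h (74.9%, 14.7% and 60.2%). Scaled by median of ratios, the members gave 5 and 0, 5 and 0, and 6 and 2, and all genes 12.8% higher and 11.2% lower at 1 h, 22% and 18.5% at 2 h, and 31.7% and 33.8% at 6 h. Without the 5 the counts were 5 and 1, 6 and 1, and 6 and 3 (77.3%, 86.1% and 87.3%). At 2 h Tnfsf9 was not called in dKO with all libraries (1.66 ± 0.90, adjusted p = 0.105, limma), and it rose by 4.86 ± 0.13 without the 5 (2.8e-20).

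The nearest genes in expression were sought for each member by Pearson correlation of log2(RPKM + 0.5) over the 32 libraries, which share the LPS course and the 5 libraries above. For Tnf they were Tnfaip3 (0.997), Nfkbiz (0.997) and Cxcl2 (0.995), and for Tnfsf9 Csrnp1 (0.992), Plk2 (0.992) and Tnfaip3 (0.989). Tnfsf15 ran with Cxcl10 (0.993), Ifih1 (0.992) and Slfn2 (0.989), and Tnfsf10 with Usp25 (0.991), Olfr56 (0.986) and Lgals9 (0.986). Tnfsf4 was nearest to Bcl2a1d (0.984), Bcl2a1b (0.983), a near-identical copy whose reads cannot be told apart with certainty, and Nr4a3 (0.979). Among the genes nearest to Lta were Trex1 (0.973) and Tnfsf4 (0.969). The low or falling members had looser neighbours: Tgfbr3 (0.952), Vdac1 (0.948) and Rgs11 (0.946) for Tnfsf14, Rgs11 (0.948), 5830432E09Rik (0.944) and Dhdh (0.943) for Tnfsf13b, and Cyp4f18 (0.886), Odc1 (0.884) and Flt1 (0.875) for Ltb. Between members, r was 0.982 for Tnf and Tnfsf9, 0.969 for Lta and Tnfsf4, 0.929 for Tnfsf13b and Tnfsf14, and -0.894 for Tnfsf10 and Tnfsf13b, but 0.261 for the neighbours Tnf and Ltb.

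Neighbouring ligand genes were set side by side in WT cells. Tnfsf9, Cd70 and Tnfsf14 lie in a row on chromosome 17, with gaps of 38.2 and 39.7 kb, and had 3 different courses. Cd70, which encodes the ligand of CD27, was called higher at 1, 2 and 6 h, going from 1.16, 0.473, 2.09 and 0.327 RPKM at 0 h to 66.5, 67.1, 70.1 and 57.2 at 6 h (5.59 ± 0.70, adjusted p = 2.12e-07, limma), while Tnfsf9 peaked at 1 h and Tnfsf14 fell. Tnfsf8, the CD30 ligand 87.7 kb from Tnfsf15, rose by 2.70 ± 0.47 at 2 h (1.98e-05), from 20.0 to 24.4 RPKM at 0 h to 137 to 153. Tnfsf18, the GITR ligand 76.5 kb from Tnfsf4, stayed under the filter, with its highest value of 1.99 RPKM in a WT library at 2 h. At 1 h it held 0.643 to 0.79 RPKM in WT, and at 6 h 0.659 to 0.88. Tnfsf18 was not among the genes tested, and its genotypes are not compared here.

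**Figure D4:**
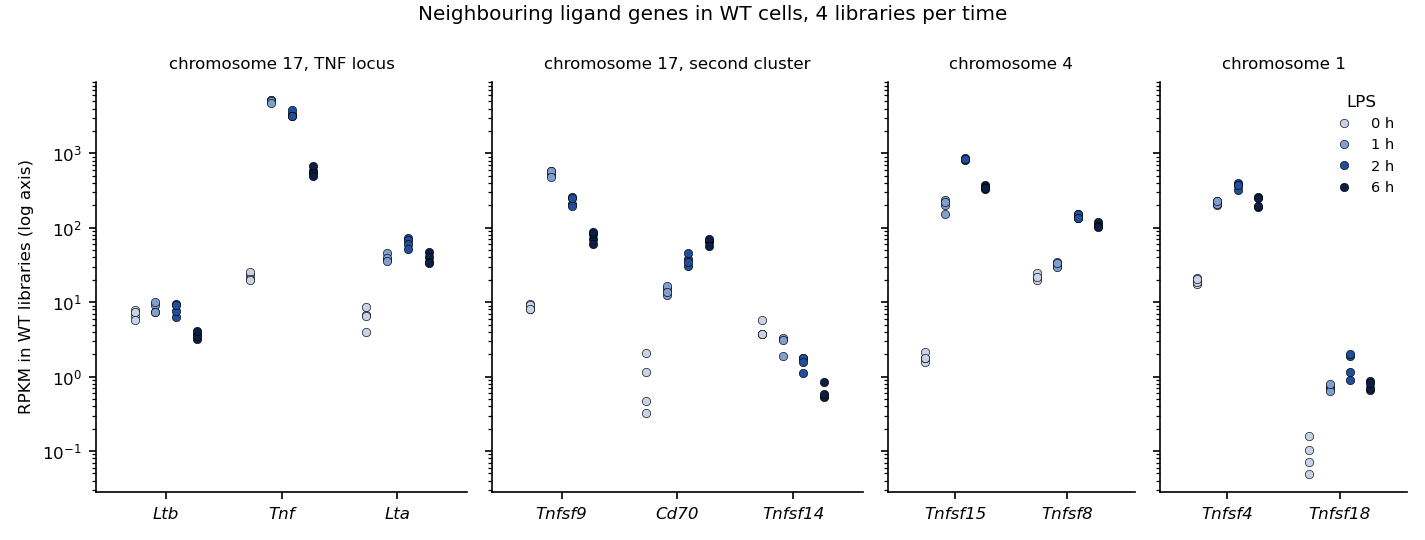
RPKM (log axis) in the 4 WT libraries per LPS time (shade) for ligand genes that neighbour each other on chromosomes 17, 4 and 1. Tnf and Lta rise where Ltb does not, and Tnfsf9, Cd70 and Tnfsf14 follow 3 different courses.

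Of the 9 other ligands of the superfamily looked at, 4 could be tested. Besides Cd70 and Tnfsf8, these were Tnfsf12 (TWEAK) and Tnfsf13 (APRIL), which fell by 2.27 and 2.90 on the log2 scale at 6 h in WT and lie 0.685 kb apart, so that reads of joined transcripts could be counted for either. Fasl, Cd40lg, Tnfsf11 and Eda never exceeded 0.0866 RPKM. In dKO cells Cd70 was lower at 2 h in either set (-2.12 ± 0.70, adjusted p = 0.0432, limma; -1.14 ± 0.29 without the 5, 0.00341) and at 1 and 6 h without the 5 (-0.99 and -0.91). Tnfsf8 was higher at 6 h without the 5 (0.60 ± 0.09, adjusted p = 8.19e-06, limma). The median genotype difference of the list was -0.02, 0.18, -0.28 and 0.53 at 0, 1, 2 and 6 h with all libraries, and -0.13, 0.22, 0.21 and 0.25 without the 5. With those 5 left out, the numbers called higher and lower were 0 and 0, 1 and 1, 0 and 1, and 1 and 1. In either direction 26.2%, 39.2%, 33.1% and 46.9% of all genes were then called.

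Among 15 receptors of the members, 12 were tested. In WT cells 2 were called higher and 4 lower at 1 h, 4 and 6 at 2 h, and 2 and 7 at 6 h, where 45.5%, 68.5% and 60.9% of all genes were lower. Scaled by median of ratios the counts were 3 and 1, 5 and 3, and 2 and 3. With that scaling 15.2%, 30.7% and 32.6% of all genes were higher and 13.1%, 31.1% and 33.8% lower. Tnfrsf11b, a soluble decoy for TRAIL, rose by 1.99 ± 0.31 at 2 h, and Ltbr, which binds lymphotoxin and LIGHT, fell by 1.58 on the log2 scale. Between genotypes 0 receptors were called higher and 1 lower at 0 h, 0 and 1 at 1 h, 1 and 1 at 2 h, and 2 and 2 at 6 h. Of all genes, 0.932%, 1.84%, 5.15% and 4.55% were higher at these times and 5.91%, 9.02%, 7.24% and 10.2% lower. Tnfrsf4, which encodes OX40, was lower in dKO at 0 h (5.03, 5.77, 5.06 and 4.61 RPKM in WT; 1.19, 0.80, 1.28 and 1.49 in dKO), by -1.74 ± 0.25 (adjusted p = 2.24e-05, limma). It was also lower at 1 h (-1.64) and 6 h (-1.05) and not called at 2 h (-0.73), and without the 5 it was lower at all 4 times (-1.62, -1.51, -1.16 and -0.90), so that both OX40 ligand, without the 5, and its receptor were lower in the dKO libraries. Tnfrsf26, a decoy-like receptor, was higher in dKO at 2 h (0.94 ± 0.25) and 6 h (1.49 ± 0.25), and at all 4 times without the 5 (0.49, 0.66, 1.08 and 1.23). For the receptors, the median genotype difference of the list was -0.10, -0.08, -0.08 and 0.15 at 0, 1, 2 and 6 h with all libraries, and -0.06, -0.06, -0.01 and 0.14 without the 5. With those 5 left out, the numbers called higher and lower were 1 and 3, 3 and 3, 2 and 2, and 3 and 2. The shares of all genes were then 6.75%, 9.8%, 9.29% and 13.9% higher and 19.4%, 29.4%, 23.8% and 33% lower.

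Of 15 genes of ligand shedding and mRNA decay, 14 were tested. Adam17, the sheddase of membrane TNF, was higher in dKO at every time: 0.32, 0.35, 0.33 and 0.53 (log2, SE 0.07, adjusted p = 0.00272, 0.000844, 0.00116 and 2.72e-06, limma), from 59.9 to 68.5 RPKM in WT and 76.4 to 80.4 in dKO at 0 h. Scaled by median of ratios, the 2 h value of 0.25 was not called. Without the 5 the values of Adam17 were 0.33, 0.33, 0.35 and 0.49, all called. Zfp36l2 was higher at 2 h (1.63 ± 0.43, adjusted p = 0.0113, limma), and without the 5 at 1, 2 and 6 h (0.38, 0.69 and 1.00). With all libraries 0 genes of the list were lower at any time, where 5.91%, 9.02%, 7.24% and 10.2% of all genes were. Zfp36 itself rose from 142 to 180 RPKM at 0 h to 652 to 920 at 1 h in WT (2.22 ± 0.48, adjusted p = 0.001, limma) and held 101 to 125.6 at 2 h. Zc3h12a, which encodes the RNase regnase-1, rose by 2.80 at 1 h and 2.90 at 2 h. The shedding and decay genes had a median genotype difference of 0.04, 0.02, 0.05 and 0.21 at 0, 1, 2 and 6 h with all libraries, and 0.02, 0.04, 0.12 and 0.15 without the 5. With those 5 left out, the numbers called higher and lower were 1 and 2, 2 and 2, 3 and 0, and 6 and 2. Among all genes 6.75%, 9.8%, 9.29% and 13.9% were then higher and 19.4%, 29.4%, 23.8% and 33% lower.

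All 20 genes of receptor signalling and NF-kappaB feedback were tested. In WT cells 11 rose and 5 fell at 1 h, 11 and 6 at 2 h, and 14 and 1 at 6 h, where 6.84%, 11.2% and 14.9% of all genes were higher and 45.5%, 68.5% and 60.9% lower. Scaled by median of ratios the counts were 12 and 2, 14 and 2, and 17 and 0. With that scaling 15.2%, 30.7% and 32.6% of all genes were higher and 13.1%, 31.1% and 33.8% lower. Tnfaip3, which encodes the feedback inhibitor A20, rose by 4.53 ± 0.74 at 1 h (adjusted p = 0.000108, limma). Map3k14, the kinase NIK of the noncanonical pathway used by lymphotoxin and BAFF receptors, was lower in dKO at 0 h (-1.08 ± 0.31, adjusted p = 0.0271, limma), 1 h (-1.005) and 6 h (-1.11), and fell by 2.51 at 2 h in WT. Its differences at 0, 1 and 6 h were -0.75, -0.86 and -0.83 without the 5, all called. No gene of this list was higher in dKO at any time with all libraries, and 1, 1, 1 and 2 were lower. Among all genes 0.932%, 1.84%, 5.15% and 4.55% were higher and 5.91%, 9.02%, 7.24% and 10.2% lower. The signalling genes had a median genotype difference of -0.16, -0.16, -0.27 and -0.26 at 0, 1, 2 and 6 h with all libraries, and -0.24, -0.21, -0.16 and -0.16 without the 5. The numbers called higher and lower were then 0 and 11, 0 and 10, 0 and 8, and 2 and 7. Of all genes 6.75%, 9.8%, 9.29% and 13.9% were then higher and 19.4%, 29.4%, 23.8% and 33% lower. With median-of-ratios scaling as well the numbers were 0 and 8, 0 and 5, 1 and 2, and 2 and 4. The shares of all genes were then 10%, 16.6%, 17.4% and 22.4% higher and 12.8%, 18.1%, 15.5% and 20.3% lower.

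Of the 9 genes of the Tnf locus that were tested, the 3 ligands included, 2, 2, 2 and 1 had less RNA in dKO at the successive times 0, 1, 2 and 6 h, and 0 had more. Of all genes 5.91%, 9.02%, 7.24% and 10.2% were lower and 0.932%, 1.84%, 5.15% and 4.55% higher. Under median-of-ratios scaling 1, 1, 3 and 1 had less and 0, 0, 1 and 1 had more. With that scaling 3.07%, 6.27%, 9.73% and 8.02% of all genes were lower and 1.79%, 4.19%, 8.55% and 8.22% higher. Lst1, beside Ltb, was lower at 0 h (-0.83 ± 0.14, adjusted p = 0.000168, limma) and 6 h (-0.67), and Aif1 at 1 h (-1.001 ± 0.27, 0.0149). Both were lower at all 4 times without the 5 (-0.71, -0.31, -0.61 and -0.57 for Lst1, and -0.62, -0.88, -0.55 and -0.99 for Aif1), although with median-of-ratios scaling as well the 1 h value of Lst1 was not called (-0.19, adjusted p = 0.0904, limma). The median difference of the locus genes was -0.23, -0.18, -0.63 and 0.03 at 0, 1, 2 and 6 h with all libraries, and -0.37, -0.14, -0.10 and -0.13 without the 5. Without the 5, the numbers called higher and lower were 0 and 5, 0 and 3, 0 and 3, and 1 and 3. Of all genes, 6.75%, 9.8%, 9.29% and 13.9% were then higher and 19.4%, 29.4%, 23.8% and 33% lower. Tnf, Lta and Ltb, already counted as members, are among those lower at 0 h. Ltb lies 993 kb from Psmb8, which the dKO genotype lacks.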

How the data were processed

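RNA-seq of 32 libraries was analysed. The authors deposited per gene an RPKM value and a whole-number coverage signal, which the values show to be proportional to RPKM times gene length and which was read as aligned bases. CASAVA 1.8.2 and mm9 are named per the submitters' processing notes, and aligner settings, annotation, counting and its strand rule are not given in the sources used here. No read counts were used, so no counting intervals are given, and depth (1.27 to 1.87 Gb) limits low genes most. ERCC controls (92 entries) were left out.

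Log2(RPKM + 0.5) of 11154 genes with RPKM of 1 or more in 4 or more libraries was fitted with limma 3.58.1 in R 4.3.3, with 1 mean per group, 15 contrasts, and Benjamini-Hochberg adjustment over all genes at 0.05. The added 0.5 understates folds of low genes. The fit was tested on simulated data, drawn for every group from the means and spread of the WT 0 h libraries. The simulated data held no libraries like the 5 dKO libraries nearest to another time, so that test cannot speak of their effect. Tables and figures used Python 3.11.15, pandas 2.3.3, numpy 2.4.6 and matplotlib 3.10.9. The members and lists were chosen with earlier results of these data known. Named were all members, in each other list up to 4 genes with the smallest adjusted p per comparison plus genes a statement needed, and the 3 genes closest to each member in correlation, of which 1 is not reported here. Alternatives were pseudocounts of 0.1 and 1, median-of-ratios scaling, no filter, a replicate block and leaving out each library. Leaving out 5 dKO libraries was added after the data were seen.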

Additional observations from a re-analysis of the deposited data

Results flagged for a closer look

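A set was taken as the 4 values of 1 member in 1 group of libraries. In 17 of 72 such sets, 1 library stood far from the other 3 relative to the range of the set. Chance gives about 1 in 20 for a single set. The members share the same libraries and several correlate closely, so the 72 are not separate tests. The count of 17 therefore cannot be weighed against that rate. Of the 17, 15 lie in the 5 dKO libraries nearest to another WT time. The library labelled dKO 0 h replicate 2 held 6060 RPKM of Tnf, 104 of Tnfsf4, 573 of Tnfsf9, 0.065 of Tnfsf10 and 156 of Tnfsf15. The library labelled dKO 1 h replicate 2 held 4031 of Tnf, 271 of Tnfsf9, 1.46 of Tnfsf10 and 845 of Tnfsf15. That labelled dKO 2 h replicate 2 held 1.63 of Lta and 0.635 of Tnfsf15, and that labelled dKO 6 h replicate 4 held 2830 of Tnf, 180.4 of Tnfsf9, 1.95 of Tnfsf10 and 1043 of Tnfsf15. In WT, Tnfsf14 stood apart at 5.75 RPKM in 0 h replicate 1 and at 1.91 in 1 h replicate 4.

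The LPS response differed between genotypes by limma without the 5 libraries in 13 of 27 comparisons of a member and a time, and in 0 of 27 with them. Without the 5, 1.8%, 5.62% and 20.3% of all genes were called at 1, 2 and 6 h. The comparisons of a member share its 0 h libraries, so the 27 are not separate tests. On the log2 scale, dKO response minus WT response was 0.62 for Tnf, 1.17 for Lta, 0.68 for Tnfsf4 and 0.81 for Tnfsf15 at 1 h. At 2 h it was 1.58 for Lta, 0.88 for Tnfsf4, -0.83 for Tnfsf10 and 0.90 for Tnfsf15. At 6 h it was 0.75 for Tnf, 1.61 for Lta, 0.45 for Tnfsf4, 0.94 for Tnfsf10 and 0.86 for Tnfsf15.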

How the results depend on the processing

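With a pseudocount of 1, all 93 single-gene results kept their direction and side of the threshold. A pseudocount of 0.1 ended 4 calls, no filter 8 and median-of-ratios scaling 11. Members called at 1 h between genotypes went from 1 to 0 with a pseudocount of 0.1, with median-of-ratios scaling and with no filter. Median-of-ratios scaling left 0 at 0 h, 1 at 2 h and 1 in WT from 1 to 2 h. No filter left 1 at 2 h, 1 in WT from 1 to 2 h and 4 in dKO at 2 h after LPS. With median-of-ratios scaling the direction turned for Tnfsf10 in dKO at 1 h after LPS (0.18) and for Ltb in dKO at 6 h (0.48).

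The replicate numbers were not taken as pairs, since not every pair of libraries of the same number correlated above 0.1: 1 of 16 between WT and dKO at the same time did (median 0.0518), 16 of 24 across times within WT (median 0.14, lowest 0.0207) and 5 of 24 within dKO (median -0.0653). With a replicate block, 0 members were called between genotypes at 1 h and 1 in WT from 1 to 2 h. The block ended 6 single calls. It was not fitted without the 5 libraries, which are also among the dKO pairs above.

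Without the 5 dKO libraries, and likewise with median-of-ratios scaling as well, the members called between genotypes were 5 and 5 at 0 h, 3 and 4 at 1 h, 4 and 5 at 2 h, and 4 and 3 at 6 h. They were 8 and 7 in WT from 1 to 2 h, 9 and 9 from 2 to 6 h, and 4 and 4, 4 and 5, and 5 and 5 for the response differences at 1, 2 and 6 h. The shares of all genes called between genotypes were 26.2% and 22.8% at 0 h, 39.2% and 34.7% at 1 h, 33.1% and 32.9% at 2 h, and 46.9% and 42.8% at 6 h. For the 2 WT steps they were 71.7% and 61.8%, and 74.2% and 74.7%. For the response differences they were 1.8% and 1.73%, 5.62% and 6.37%, and 20.3% and 20.4%. In the same 2 settings, directions turned for the 0 h genotype difference of Tnf (-0.37 and -0.30) and Tnfsf15 (-0.82 and -0.67). They also turned for the response differences of Tnf (0.62 and 0.66 at 1 h, 0.75 and 0.81 at 6 h), Tnfsf4 (0.68 and 0.70 at 1 h, 0.88 and 0.91 at 2 h, 0.45 and 0.48 at 6 h), Tnfsf15 (0.81 and 0.78 at 1 h, 0.90 and 0.88 at 2 h, 0.86 and 0.85 at 6 h) and Lta (1.58 and 1.55 at 2 h). In the second setting alone they turned in dKO after LPS for Tnfsf13b (0.081) and Tnfsf14 (0.41) at 2 h and Ltb (0.24) at 6 h. The cause was not tested.

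Leaving out 1 library at a time gave 0 to 1 members called between genotypes at 0 h and at 1 h, 1 to 2 at 2 h and 0 at 6 h. It gave 3 to 8 in dKO at 2 h and 6 to 8 at 6 h, 1 to 2 in WT from 1 to 2 h and 2 to 3 from 2 to 6 h, and 0 for the response differences. Of the single-gene values 753 held their call and direction, 69 lost a call, 4 gained one and 22 turned direction. The 0 h difference of Tnf ran from -0.37 to 2.503 and that of Tnfsf15 from -0.82 to 1.57, and the lowest values came without the library labelled dKO 0 h replicate 2. The 2 h difference of Tnfsf10 ran from -1.40 to 0.27, its change in dKO at 1 h from -0.48 to 0.12, and that of Ltb in dKO at 6 h from -0.38 to 0.12. The response differences ran from -2.40 to 0.48 (1 h) and -1.64 to 1.23 (6 h) for Tnf, and from -0.50 to 0.85 (1 h) and -0.68 to 0.67 (6 h) for Tnfsf4. They ran from -1.06 to 1.33 (1 h) and -1.14 to 1.24 (6 h) for Tnfsf15, from -1.14 to 0.48 (2 h) for Lta, and from -1.11 to 0.56 (2 h) and -0.010 to 1.12 (6 h) for Tnfsf10.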
